A study of Mus musculus with 12 samples.

Results

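Reactive astrocyte genes are genes that astrocytes turn up after injury, inflammation or protein deposits. The 10 followed here are Gfap, Vim, Serpina3n, Osmr, Stat3, Cd44, Lcn2, Timp1, Cp and S1pr3, taken as a list of gene names and not by a threshold on their values, out of 55573 genes in the count table. The comparison sets APP/PS1 hippocampus against wild-type (WT) hippocampus, gene by gene, and asks how far each member differs with genotype, in which sex, and in which single libraries.

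Astrocytes that surround amyloid plaques enlarge, and their cytoskeleton fills with the intermediate filament proteins GFAP and vimentin. Cytokines of the interleukin-6 family, among them oncostatin M, act on astrocytes through receptors that pair with gp130 and switch on JAK kinases and the transcription factor STAT3, which drives many of the genes followed here. Others among them, such as Lcn2, Timp1 and Serpina3n, code for secreted proteins that rise steeply in acute inflammation or injury.

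The APP/PS1 mice (genotype APPSwe/Ps1dE9, strain C57BL/6J) are transgenic for mutant forms of APP and PS1, whose expression follows a prion promoter and not the genes' own promoters. The WT mice were of the same strain, and all animals were 4.5 months old. Each of the 12 libraries held poly-A RNA of 1 animal's entire right hippocampus, 4 libraries for each sex of APP/PS1 and 2 for each sex of WT. Total counts per library ran from 36714316 to 50643565.

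Values below are counts scaled to library size (CPM) after upper-quartile scaling, called normalized CPM, unless a sentence says otherwise. Differences between genotypes are log2 fold changes with their standard error (SE) from a single edgeR fit of all 12 libraries with 2 factors of unwanted variation. A gene was called when edgeR's quasi-likelihood test gave it a p below 0.1 after Benjamini-Hochberg adjustment over the 14008 genes tested. Genes entered that test when log2 CPM reached 1 in at least 3 libraries, and 8 of the 10 members did so. Lcn2 and Timp1 did not.

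Some libraries stood apart, and for most members values without some of them are also given. Ttr, the transthyretin gene that marks choroid plexus, reached 3586 raw CPM in the library of APP/PS1 female 1. It was at 6248 in APP/PS1 male 2 and at 3672 in WT female 2, against 2.66 to 18.5 in the other libraries. All 11 genes of a choroid plexus list were measured, and Ttr was the most abundant of them by its mean over all libraries, which the libraries rich in it set. The summed choroid plexus level was 5649, 10172 and 6012 normalized CPM in these Ttr-rich libraries and 136 to 197 elsewhere. WT male 2 stood apart in another way, with 978 Lcn2 counts where the other WT libraries had 6 to 87. APP/PS1 male 1 had 187 Lcn2 counts against 2 to 7 in the other APP/PS1 males.

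**Figure D1:**
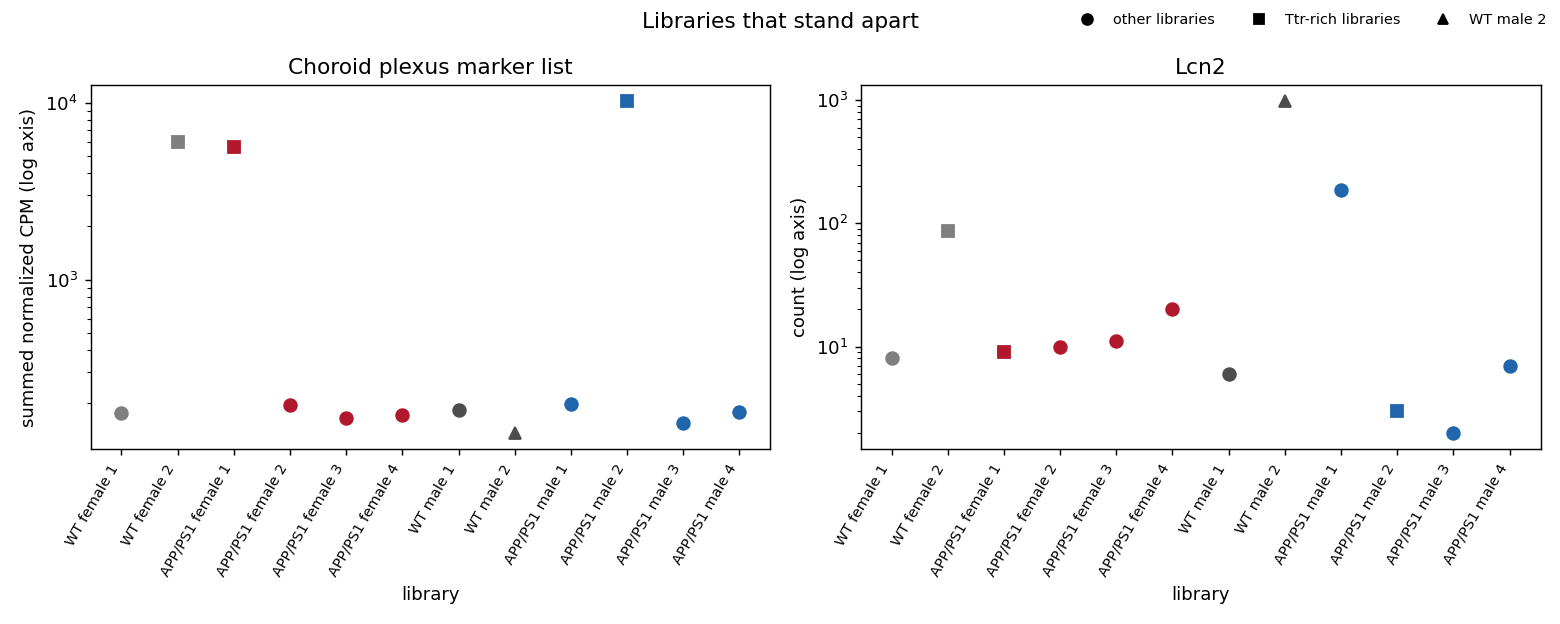
Summed choroid plexus list in normalized CPM and Lcn2 in counts for each of the 12 libraries, both on log axes. The choroid plexus list is at 5649 to 10172 normalized CPM in 3 libraries, and Lcn2 stands at 978 counts in WT male 2.

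Astrocyte content was checked with 15 astrocyte markers other than the members. None was at 0 in all libraries, Slc1a2 was the most abundant, and the summed astrocyte level was 6432 to 7558 normalized CPM in APP/PS1 (median 6961) and 6947 to 7559 in WT (median 7238). edgeR's quasi-likelihood test called 0 of the 15 in the contrast averaged over both sexes, and the median of their log2 fold changes was -0.01. The tissue was bulk, so more RNA per astrocyte and more astrocytes cannot be told apart for any member.

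Set by length (normalized CPM per kb of exon, mean of all libraries), Gfap was by far the most abundant member at 169.8, followed by Serpina3n at 30.6, Vim at 7.22 and Stat3 at 5.41. Cp stood at 1.84 and S1pr3 at 1.72. Cd44 (0.885), Lcn2 (0.877) and Osmr (0.736) came next, and Timp1 was lowest at 0.196. The Lcn2 mean rests on WT male 2, since its median across libraries was 0.241 normalized CPM before division by length.

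Averaged over both sexes, 1 of the 8 tested members was called higher in APP/PS1, where 1.9 percent of all tested genes were called in either direction. That member was Gfap. The median log2 fold change of the 8 was 0.18, beside 0.01 for all genes tested, and 7 of 8 were positive, beside 54.7 percent of all genes. Without WT male 1 that median was 0.081, and without WT male 2 it was 0.28. Every APP/PS1 library lay above every WT library for 1 of the 8 members, again Gfap, and for 1.31 percent of all genes. Leaving out libraries cannot undo such a separation and can only add members to the count. No member was added without the 3 Ttr-rich libraries, where 2.53 percent of all genes had the separation, or without WT male 2, where 1.86 percent had it. Leaving out APP/PS1 male 3 added Stat3 and made the count 2, where 1.64 percent of all genes had it, though with TMM scaling or raw totals the count there was 1.

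**Figure D2:**
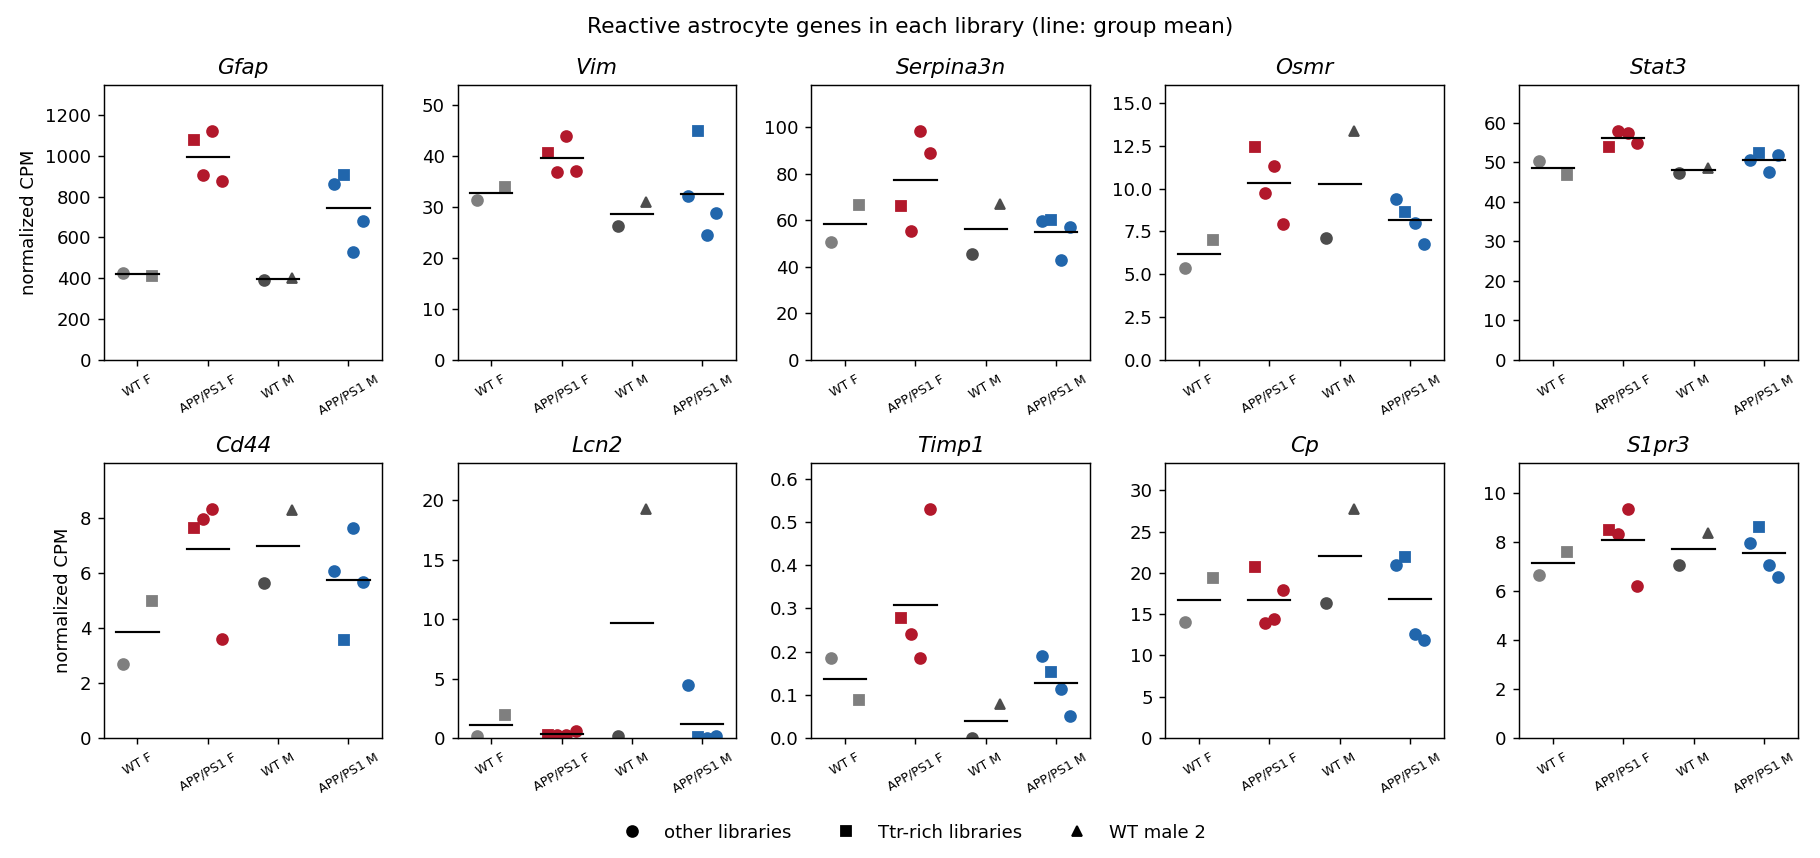
Normalized CPM of each of the 10 members in every library by group, with a line at each group mean. Gfap is the member whose APP/PS1 libraries (529.6 to 1124) all lie above all WT libraries (393 to 425).

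Gfap (ENSMUSG00000020932, GRCm38 chromosome 11, 102887336 to 102900912, minus strand) codes for the glial fibrillary acidic protein, the main intermediate filament of astrocytes. It stood at 1077, 908, 1124 and 879 normalized CPM in the APP/PS1 females and at 425 and 413 in the WT females. In males it stood at 862, 907, 529.6 and 679 in APP/PS1 and at 393 and 399.6 in WT. The groups did not overlap in either sex, the WT libraries lay close together, and APP/PS1 male 3 was the lowest APP/PS1 library. Group means were 997 ± 122 (SD, n = 4) and 419 ± 8.12 (SD, n = 2) in females, and 745 ± 174 (SD, n = 4) and 396 ± 4.54 (SD, n = 2) in males. The averaged log2 fold change was 1.06 ± 0.14 (SE), a fold of 2.09, with an adjusted p of 0.0123 in edgeR's quasi-likelihood test and a higher level in 8 of 8 APP/PS1 libraries. An exact two-sided permutation test over every assignment of the 12 libraries to the genotypes gave a difference in mean log2 of 1.06 with p = 0.00202, the smallest p this design can give. Leaving out WT female 1 took the adjusted p to 0.110 at a log2 fold change of 1.10, while leaving out any other single library kept the call. Without the 3 Ttr-rich libraries the log2 fold change was 1.0, with an adjusted p of 0.067 with no factor of unwanted variation and 0.185 with 1 factor. The adjusted p across the alternatives that kept all animals or left out groups of them ran from 9.47e-27 to 0.185.

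In females alone Gfap was the called member, 1 of 8, where 0.764 percent of all genes were called. There the likelihood ratio test called 3 members (Gfap, Osmr and Cd44) and 2.83 percent of all genes, and DESeq2 the same members and 2.11 percent. All APP/PS1 females lay above both WT females for 4 of 8 members (Gfap, Vim, Osmr and Stat3), beside 12.5 percent of all genes, and all APP/PS1 males above both WT males for 1 of 8, Gfap, beside 6.5 percent. The female log2 fold change of Gfap was 1.27 ± 0.20 (SE), a fold of 2.42, with an adjusted p of 0.0447 in edgeR's quasi-likelihood test and 4 of 4 APP/PS1 females above both WT females. That call was lost without APP/PS1 females 1 (adjusted p 0.102) or 2 (0.105), WT females 1 (0.339) or 2 (0.215), APP/PS1 male 2 (0.101), or WT males 1 (0.118) or 2 (0.103), at log2 fold changes of 1.16 to 1.36. Without the Ttr-rich libraries the female log2 fold change was 1.19 with an adjusted p of 0.232. Over the alternatives that did not leave out single libraries in turn, the adjusted p for Gfap in females ran from 1.34e-17 to 0.359.

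In males 0 of 8 members were called by edgeR's quasi-likelihood test, where 0.171 percent of all genes were called and 798 genes had an unadjusted p below 0.05. DESeq2 called 146 genes and 1 member, Gfap, and the edgeR likelihood ratio test called 218 genes and the same member. The male log2 fold change of Gfap was 0.85 ± 0.19 (SE), a fold of 1.80, with an adjusted p of 0.334 by edgeR's quasi-likelihood test, 0.0331 by DESeq2 and 3.11e-08 by the likelihood ratio test. All 4 APP/PS1 males lay above both WT males. Without APP/PS1 male 3, the lowest of the 4, the log2 fold change was 1.0 with an adjusted p of 0.0166. The male adjusted p over the alternatives that did not leave out single libraries ran from 3.11e-08 to 1.0, and without the Ttr-rich libraries the log2 fold change was 0.80 with an adjusted p of 0.577. The sexes were not shown to differ in the size of the genotype difference, since the interaction was 0.42 ± 0.26 (SE) on the log2 scale with an adjusted p of 0.995 in edgeR's quasi-likelihood test.

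The other filament member, Vim (ENSMUSG00000026728, chromosome 2, 13573927 to 13582826, plus strand), codes for vimentin, which assembles with GFAP. Its levels were 40.6, 36.8, 43.8 and 37.1 normalized CPM in the APP/PS1 females and 31.4 and 33.8 in the WT females. In males they were 32.0, 44.9, 24.4 and 28.8 in APP/PS1 and 26.1 and 30.9 in WT. The females did not overlap, whereas the males did, with APP/PS1 male 2, a Ttr-rich library, highest of all and APP/PS1 male 3 lowest of all. Averaged over both sexes, Vim had a log2 fold change of 0.20 ± 0.11 (SE) with an adjusted p of 0.590 in edgeR's quasi-likelihood test. It was 0.31 ± 0.15 (SE) in females, where the adjusted p was 0.549, and 0.09 in males, where it was 0.999, and without the Ttr-rich libraries the averaged value was 0.16 and the male value -0.01. Of 4 tested filament partners none was called, the most abundant being Plec at 144 normalized CPM, and their median log2 fold change was 0.01.

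Osmr (ENSMUSG00000022146, chromosome 15, 6813577 to 6874969, minus strand) codes for the oncostatin M receptor subunit that pairs with gp130. It stood at 12.4, 9.74, 11.3 and 7.94 normalized CPM in the APP/PS1 females and at 5.34 and 7.0 in the WT females. In males it stood at 9.37, 8.61, 8.01 and 6.77 in APP/PS1 and at 7.11 and 13.4 in WT. All APP/PS1 females lay above both WT females, while the male groups overlapped, with WT male 2 the highest library of the 12 and WT male 1 near the bottom of the APP/PS1 males. The averaged log2 fold change was 0.25 ± 0.16 (SE) with an adjusted p of 0.677 in edgeR's quasi-likelihood test, and it ran from 0.0295 without WT male 1 to 0.47 without WT male 2. The exact permutation test of mean log2 for Osmr gave p = 0.345 with all libraries and 0.0303 without WT male 2. In females the log2 fold change was 0.85 ± 0.24 (SE) with an adjusted p of 0.230 and an unadjusted p of 0.00448 over the fit, and in males -0.34 ± 0.22 (SE) with an adjusted p of 0.999. The female difference was called by the likelihood ratio test (adjusted p 0.00818) and DESeq2 (0.0221). Under edgeR's quasi-likelihood test it was called without APP/PS1 male 4 (0.0597), WT male 1 (0.0766) or WT male 2 (0.0800), and its adjusted p over the alternatives that did not leave out single libraries ran from 0.00818 to 0.654.

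The male value for Osmr turned on WT male 2. Without that library it was 0.15, and without WT male 1 it was -0.76, both on the log2 scale. The interaction between genotype and sex for Osmr was 1.19 ± 0.32 (SE) on the log2 scale, with an unadjusted p of 0.00360 over the fit and an adjusted p of 0.995 in edgeR's quasi-likelihood test, and it was 0.65 without WT male 2. The likelihood ratio test put the Osmr interaction at an adjusted p of 0.0808, within a range of 0.0808 to 1.0 over the alternatives that did not leave out single libraries in turn. Without the Ttr-rich libraries the female difference for Osmr was 0.86 and the male one -0.35. Against the WT mean of their own sex, which WT male 2 raised in males, the 4 APP/PS1 females stood at 0.35 to 0.96 on the log2 scale and the 4 APP/PS1 males at -0.50 to -0.06.

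Over all members, 0 of 8 interactions were called by edgeR's quasi-likelihood test, and 0 percent of all genes were. All 8 interactions were positive, beside 52.5 percent of all genes, with a median of 0.43 on the log2 scale. Without WT male 2 the interaction was 0.06 for Serpina3n (0.44 with all libraries), 0.09 for Cp (0.57) and 0.18 for S1pr3 (0.32). Among the cell type lists, all interactions were also positive for endothelial (7 genes, median 0.27) and ependymal genes (6, 0.42). They were all negative for choroid plexus genes (11, -0.76). For the interaction 564 genes had an unadjusted p below 0.05, and DESeq2 called 9 genes and the likelihood ratio test 15. The likelihood ratio test was also the tool that called 1 member, Osmr. Between APP/PS1 females and APP/PS1 males, 0 of 8 members were called by edgeR's quasi-likelihood test, where 0.0857 percent of all genes were called, 747 genes had an unadjusted p below 0.05 and DESeq2 called 31 genes and the likelihood ratio test 77. When the first-pass test took both genotype effects together, 1098 genes were called between the sexes, 2946 had an unadjusted p below 0.05, and 0 of 8 members were called. In that run Cd44 was at -0.65 on the log2 scale. Its first-pass test did not include a difference between the sexes, so genes that differ by sex could remain among the control genes. Values between the sexes from that run are therefore not comparable with the others. With the first-pass test used for the other values, all 8 female minus male differences in APP/PS1 were positive, beside 52.6 percent of all genes, with a median of 0.23. The largest were 0.49 for Serpina3n and 0.44 for Gfap on the log2 scale, with adjusted p of 0.925 and 0.865, and the likelihood ratio test called Gfap at 0.39 (adjusted p 0.0631, range over alternatives 0.0631 to 1.0).

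**Figure D3:**
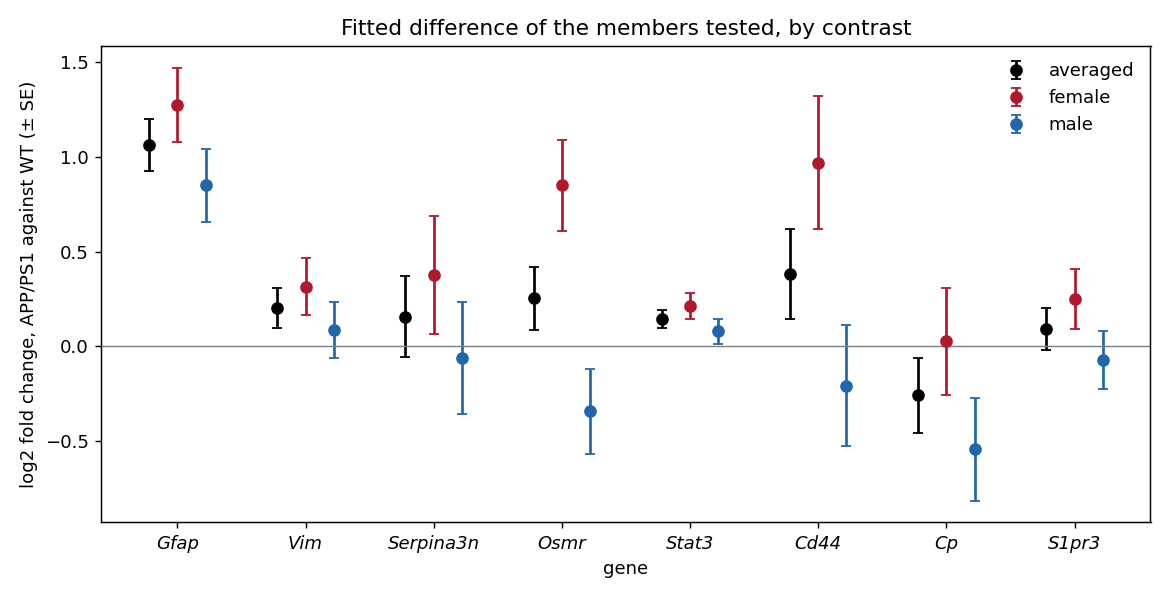
Log2 fold change of APP/PS1 against WT with its SE for the 8 tested members, averaged over both sexes, in females and in males. Gfap is 1.06 averaged, 1.27 in females and 0.85 in males, and Osmr is 0.85 in females and -0.34 in males.

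Stat3 (ENSMUSG00000004040, chromosome 11, 100885098 to 100939540, minus strand) codes for the transcription factor that carries the signal of these receptors to the nucleus. Its levels were 53.8, 57.9, 57.2 and 54.9 normalized CPM in the APP/PS1 females and 50.3 and 46.8 in the WT females. In males they were 50.5, 52.3, 47.4 and 51.8 in APP/PS1 and 47.3 and 48.5 in WT. The spread was narrow, the females did not overlap, and in males APP/PS1 male 3 fell between the WT libraries. The averaged log2 fold change of Stat3 was 0.15 ± 0.05 (SE), with an unadjusted p of 0.00855 over the fit and an adjusted p of 0.255 in edgeR's quasi-likelihood test, and the value was positive in 7 of 8 APP/PS1 animals against their own sex. The exact permutation test gave a difference in mean log2 of 0.14 with p = 0.0222, and p was 0.0606 without WT female 2, 0.0545 without WT male 1 and 0.107 without the Ttr-rich libraries. Stat3 overlaps Stat5a on the opposite strand, and the libraries were strand-specific, but whether the counting used the strand is not stated, so its level is uncertain to that extent.

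Around Osmr and Stat3, none of the 6 gp130 ligands on the list passed the expression filter, and the most abundant, Ctf1, reached a mean of 1.51 normalized CPM. Of 5 gp130 family receptors 0 were called by edgeR's quasi-likelihood test in the averaged contrast, at a median of -0.07 on the log2 scale, and Il6st, the gene for gp130 itself, was the most abundant at 117. Of 9 JAK kinases and other STATs 0 were called (median 0.00), with Jak1 at 208. Of 5 tested STAT3 inhibitors 0 were called (median 0.03), with Socs2 at 23.7. Over all genes, 1342 had an unadjusted p below 0.05 in that contrast, DESeq2 called 399 and the likelihood ratio test 503.

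Cd44 (ENSMUSG00000005087, chromosome 2, 102811141 to 102901665, minus strand) codes for a surface receptor for hyaluronan. It stood at 7.62, 7.93, 8.31 and 3.60 normalized CPM in the APP/PS1 females and at 2.70 and 4.98 in the WT females. In males it stood at 6.08, 3.55, 7.62 and 5.68 in APP/PS1 and at 5.63 and 8.28 in WT. In females 3 of 4 APP/PS1 libraries were above both WT libraries and APP/PS1 female 4 lay between them, while the males overlapped. Cd44 had an averaged log2 fold change of 0.38 ± 0.24 (SE) with an adjusted p of 0.663 in edgeR's quasi-likelihood test. It was 0.97 ± 0.35 (SE) in females, at an adjusted p of 0.389, and -0.21 ± 0.32 (SE) in males, at 0.999. The interaction was 1.18 ± 0.47 (SE), with an unadjusted p of 0.0313 over the fit and an adjusted p of 0.995. Without WT female 1 that interaction was 0.73, and without WT female 2 it was 1.75. In females the likelihood ratio test called Cd44 at an adjusted p of 0.0369 and DESeq2 at 0.0749, in a range of 0.0369 to 0.714 over the alternatives that did not leave out single libraries in turn. Without the Ttr-rich libraries Cd44 stood at 0.59 averaged and 1.30 in females. Without WT female 1 it stood at 0.20 averaged and 0.56 in females, and without WT female 2 at 0.67 and 1.54. Of 5 tested genes for Cd44 ligands and hyaluronan turnover 0 were called by edgeR's quasi-likelihood test, with Cemip the most abundant at 33.6 and a median log2 fold change of 0.09.

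S1pr3 (ENSMUSG00000067586, chromosome 13, 51408639 to 51422797, plus strand) codes for a receptor for sphingosine-1-phosphate. It ranged from 6.22 to 9.35 normalized CPM in APP/PS1 and from 6.64 to 8.37 in WT, so the genotypes overlapped. Its averaged log2 fold change was 0.09 ± 0.11 (SE) with an adjusted p of 0.853 in edgeR's quasi-likelihood test, at 0.25 in females and -0.07 in males. The averaged value of S1pr3 ran from 0.0285 without WT male 1 to 0.17 without APP/PS1 male 4, and it was 0.0800 without the Ttr-rich libraries. Of 7 other genes of the sphingosine-1-phosphate pathway 0 were called, with S1pr1 the most abundant at 118 and a median of -0.01.

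Among the secreted members, Serpina3n (ENSMUSG00000021091, chromosome 12, 104406729 to 104414329, plus strand) codes for a serine protease inhibitor. Its levels were 66.4, 55.3, 98.6 and 88.9 normalized CPM in the APP/PS1 females and 50.5 and 66.5 in the WT females. In males they were 59.9, 60.3, 43.1 and 56.9 in APP/PS1 and 45.5 and 67.2 in WT. The genotypes overlapped in both sexes, and the highest levels were those of APP/PS1 females 3 and 4. Averaged over both sexes, Serpina3n had a log2 fold change of 0.16 ± 0.21 (SE) with an adjusted p of 0.880 in edgeR's quasi-likelihood test. It was 0.37 ± 0.31 (SE) in females, at an adjusted p of 0.769, and -0.06 in males, at 0.999. Without WT male 2 the male value was 0.27, without WT male 1 it was -0.35, and the female value was 0.68 without the Ttr-rich libraries and 0.13 without WT female 1. Of the 10 Serpina3 paralogs on the list 1 passed the expression filter, Serpina3g at a mean of 1.95, and it was not called.

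Cp (ENSMUSG00000003617, chromosome 3, 19957054 to 20009145, plus strand) codes for ceruloplasmin, a copper-carrying enzyme that oxidizes iron. It stood at 20.7, 13.9, 14.4 and 17.9 normalized CPM in the APP/PS1 females and at 14.1 and 19.3 in the WT females. In males it stood at 20.9, 21.9, 12.6 and 11.8 in APP/PS1 and at 16.4 and 27.7 in WT. WT male 2 was the highest library of the 12, the groups overlapped in both sexes, and the Ttr-rich libraries stood above the median of their genotype. Cp had an averaged log2 fold change of -0.26 ± 0.20 (SE) with an adjusted p of 0.746 in edgeR's quasi-likelihood test, at 0.03 in females and -0.54 ± 0.27 (SE) in males. Without WT male 2 the averaged value of Cp was -0.0462 and the male value -0.0935, and without WT male 1 they were -0.46 and -0.92. Cp stood at -0.21 averaged, 0.13 in females and -0.55 in males without the Ttr-rich libraries. Cp overlaps Hps3 on the opposite strand, and S1pr3, Cd44, Gfap and Timp1 also have an annotated antisense gene, so their levels carry the same uncertainty as that of Stat3.

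Lcn2 (ENSMUSG00000026822, chromosome 2, 32384633 to 32388252, minus strand) codes for lipocalin 2, a secreted carrier of iron-binding siderophores. It had 9, 10, 11 and 20 counts in the APP/PS1 females and 8 and 87 in the WT females. In males it had 187, 3, 2 and 7 counts in APP/PS1 and 6 and 978 in WT. Lcn2 was at 20 counts or fewer in 9 libraries and high in WT male 2, APP/PS1 male 1 and WT female 2, which belong to both genotypes. With a looser CPM filter that holds it, the averaged log2 fold change of Lcn2 was -2.59 ± 1.86 (SE) with an adjusted p of 0.715 in edgeR's quasi-likelihood test. An exact permutation test of the mean log2 gave -1.26 with p = 0.226, and 0.12 when the Ttr-rich libraries, WT male 2 and APP/PS1 male 1 were left out, so the sign depended on them. Of 7 tested iron and lipocalin partners 1 was called in the averaged contrast, beside 1.9 percent of all genes called in either direction. Fth1 was the most abundant at 1688 normalized CPM. The called gene was Tfrc, the transferrin receptor gene, with a log2 fold change of 0.23 ± 0.06 (SE) and an adjusted p of 0.0794. That call was lost without APP/PS1 females 2 (0.131), 3 (0.136) or 4 (0.196), WT female 1 (0.333), APP/PS1 males 1 (0.151), 2 (0.187) or 4 (0.107), or WT male 2 (0.314). It was also lost in 9 of the 17 alternatives that did not leave out single libraries in turn, where the adjusted p of Tfrc ran from 0.00579 to 1.0.

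Timp1 (ENSMUSG00000001131, chromosome X, 20870166 to 20874735, plus strand) codes for an inhibitor of metalloproteinases. It had 11, 9, 8 and 19 counts in the APP/PS1 females, 7 and 4 in the WT females, 8, 6, 5 and 2 in the APP/PS1 males and 0 and 4 in the WT males. Every library was at 19 counts or fewer, and the genotypes overlapped. Without an expression filter its averaged log2 fold change was 1.12 ± 0.59 (SE) with an adjusted p of 0.800 in edgeR's quasi-likelihood test, and the exact permutation test gave p = 0.101, or 0.0364 without APP/PS1 male 4. Of 5 tested genes for TIMPs and metalloproteinases 0 were called, with Timp2 the most abundant at 331 and a median of -0.14.

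**Figure D4:**
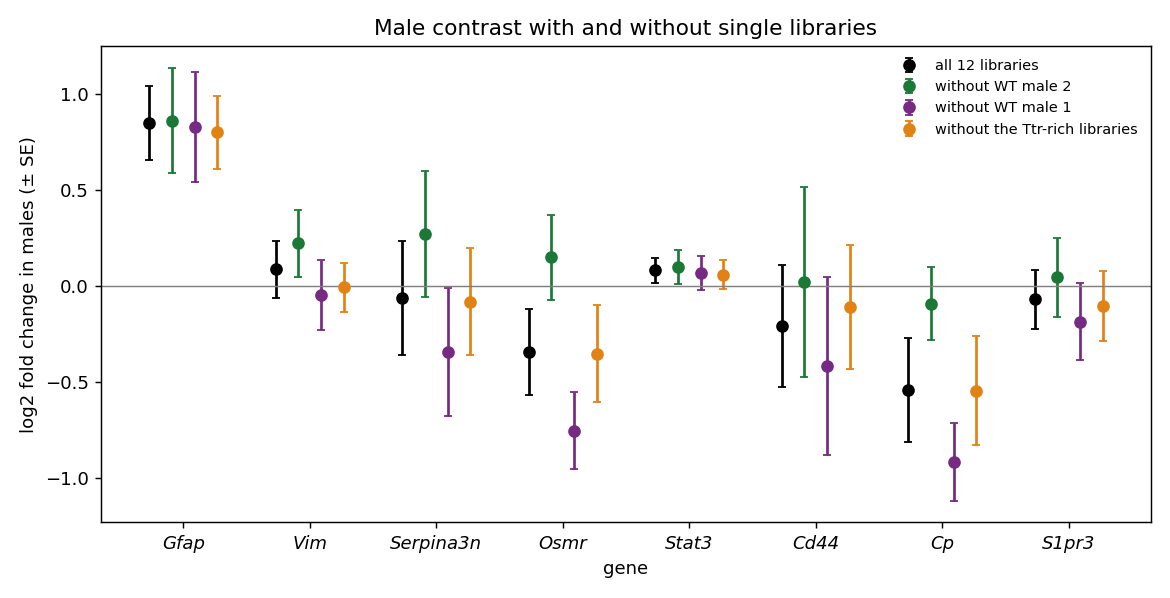
Male log2 fold change with its SE for the tested members, with all libraries, without WT male 2, without WT male 1, and without the Ttr-rich libraries. The fit without the Ttr-rich libraries had no factor of unwanted variation. Osmr moves from -0.34 with all libraries to 0.15 without WT male 2, and Gfap from 0.85 to 0.86.

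The male values as a whole depended on the WT male libraries. With all libraries 3 of 8 members were positive in males, beside 52.3 percent of all genes, and their median log2 fold change was -0.07, beside 0.01 for all genes. Without WT male 2 the median was 0.12, and without WT male 1 it was -0.27. In the females 8 of 8 members were positive, beside 54.1 percent of all genes, and their median was 0.34, beside 0.01 for all genes.

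Upstream sequences were read from RefSeq (GRCm38.p6) for all 10 members, 11 windows of 250 bases before the gene start, and searched on both strands. The STAT motif TTCNNNGAA was in 0 of the 11 windows and in 7.02 percent of all 32851 promoters. The kappaB motif (GGG and CC with 5 bases of any kind between them) was in 7 of the 11 windows and in 45.8 percent of all promoters. The 7 were those of Vim, Serpina3n, Osmr, Cd44, Lcn2 and Timp1 and 1 of the 2 Cp windows. Gfap is shown because it is the called member and Serpina3n as an example of the 7, with capitals marking kappaB matches, of which Gfap (chr11:102897201-102897450, minus strand) has none. The RefSeq start of Gfap lies inside the longer gene span given above, as do those of Vim, Osmr and Lcn2, and the second Cp window runs past the gene start given above. The windows of Vim, Osmr and Lcn2 overlap annotated exons. The Serpina3n window (chr12:104406458-104406707, plus strand) holds 4 matches in 2 overlapping pairs, GGGCTTTTCC with GGCTTTTCCC and GGGAGGAGCC with GGAGGAGCCC, and the Lcn2 window holds 1, GGACTACCCC. A match is a description of letters and not a bound site.
Gfap: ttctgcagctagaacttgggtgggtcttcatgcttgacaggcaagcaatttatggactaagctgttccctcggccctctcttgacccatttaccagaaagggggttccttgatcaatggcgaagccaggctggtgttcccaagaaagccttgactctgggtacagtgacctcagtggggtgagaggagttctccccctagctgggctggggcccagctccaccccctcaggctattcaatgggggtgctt
Serpina3n: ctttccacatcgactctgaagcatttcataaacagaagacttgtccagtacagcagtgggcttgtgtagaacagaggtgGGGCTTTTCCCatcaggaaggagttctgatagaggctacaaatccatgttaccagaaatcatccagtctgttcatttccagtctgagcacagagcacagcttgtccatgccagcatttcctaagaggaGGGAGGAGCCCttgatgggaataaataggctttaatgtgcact

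The level of plaque-associated microglial genes was set beside the members in the 8 APP/PS1 animals, since both sets of genes are known from cells around plaques. Its value is the mean log2 level of 10 genes (the most abundant is Ctsd). The list was chosen with earlier results of these data known, so its genotype difference is a description and not a test. In the averaged contrast 9 of the 10 were called higher in APP/PS1, beside 1.9 percent of all genes called in either direction. Their median log2 fold change was 1.83. The summed level was 311 to 553 normalized CPM in APP/PS1 (median 419) and 189 to 250.1 in WT (median 210.3), so the genotypes did not overlap.

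Gfap followed the plaque-associated microglial level across the 8 APP/PS1 animals with Pearson r = 0.928 (exact permutation p = 0.000645, adjusted over the 8 correlations 0.00516) and Spearman rho = 0.833 (exact permutation p = 0.0154, adjusted 0.0410). Within the 4 females r was 0.962 and within the 4 males 0.973, values without a test at that number. Vim followed it with r = 0.918 (exact permutation p = 0.00161, adjusted 0.00645) and rho = 0.857 (exact permutation p = 0.0107, adjusted 0.0410), with r of 0.982 in females and 0.953 in males. Without the libraries farthest from the median, APP/PS1 female 3 and APP/PS1 male 3, r was 0.817 for Gfap and 0.818 for Vim. Leaving out APP/PS1 male 3 alone gave r = 0.879 for Gfap (adjusted exact permutation p 0.0667) and 0.850 for Vim (0.0683). Without the Ttr-rich libraries, r over the 6 that remained was 0.939 for Gfap and 0.900 for Vim, with an adjusted exact permutation p of 0.0722 for both.

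Over the 13998 tested genes outside the microglial list, 3.72 percent had a positive r with an unadjusted exact permutation p below 0.05, beside 5 of the 8 members. An r as high as that of Gfap was found in 0.221 percent of these genes and as high as that of Vim in 0.271 percent. With adjustment over all 13998 genes in place of the 8 members, 0 genes had an adjusted exact permutation p below 0.05, and the lowest was 0.0694. Leaving out single libraries gave 2 to 5 members and 2.52 to 6.09 percent of the genes with a positive r at an unadjusted exact permutation p below 0.05. TMM scaling gave 3 members and 3.03 percent, and leaving out the Ttr-rich libraries gave 3 members and 3.36 percent.

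Pearson r with all 8 animals was lower for the other members, though no test compared the correlations with each other. Serpina3n had r = 0.717 (exact permutation p = 0.0446, adjusted 0.0747) and rho = 0.833 (adjusted 0.0410), and r fell to 0.176 without the libraries farthest from the median. Osmr had r = 0.718 (adjusted exact permutation p 0.0747) and S1pr3 r = 0.722 (adjusted 0.0747). Leaving out APP/PS1 female 4 gave Serpina3n r = 0.857 (adjusted exact permutation p 0.0138), or 0.817 with the 2 farthest libraries left out as well, and S1pr3 r = 0.879 (0.0159), and leaving out APP/PS1 female 3 gave Cp r = 0.907 (0.0148), from 0.628 with all 8. Without the 2 farthest libraries r was 0.918 for Cp, 0.685 for Osmr and 0.653 for S1pr3. Stat3 had r = 0.562, which became 0.192 without APP/PS1 male 3 and -0.159 without the 2 farthest libraries, and it was -0.183 within the females. Cd44 had r = -0.0674, the lowest of the 8, with 0.454 within the females and -0.857 within the males.

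**Figure D5:**
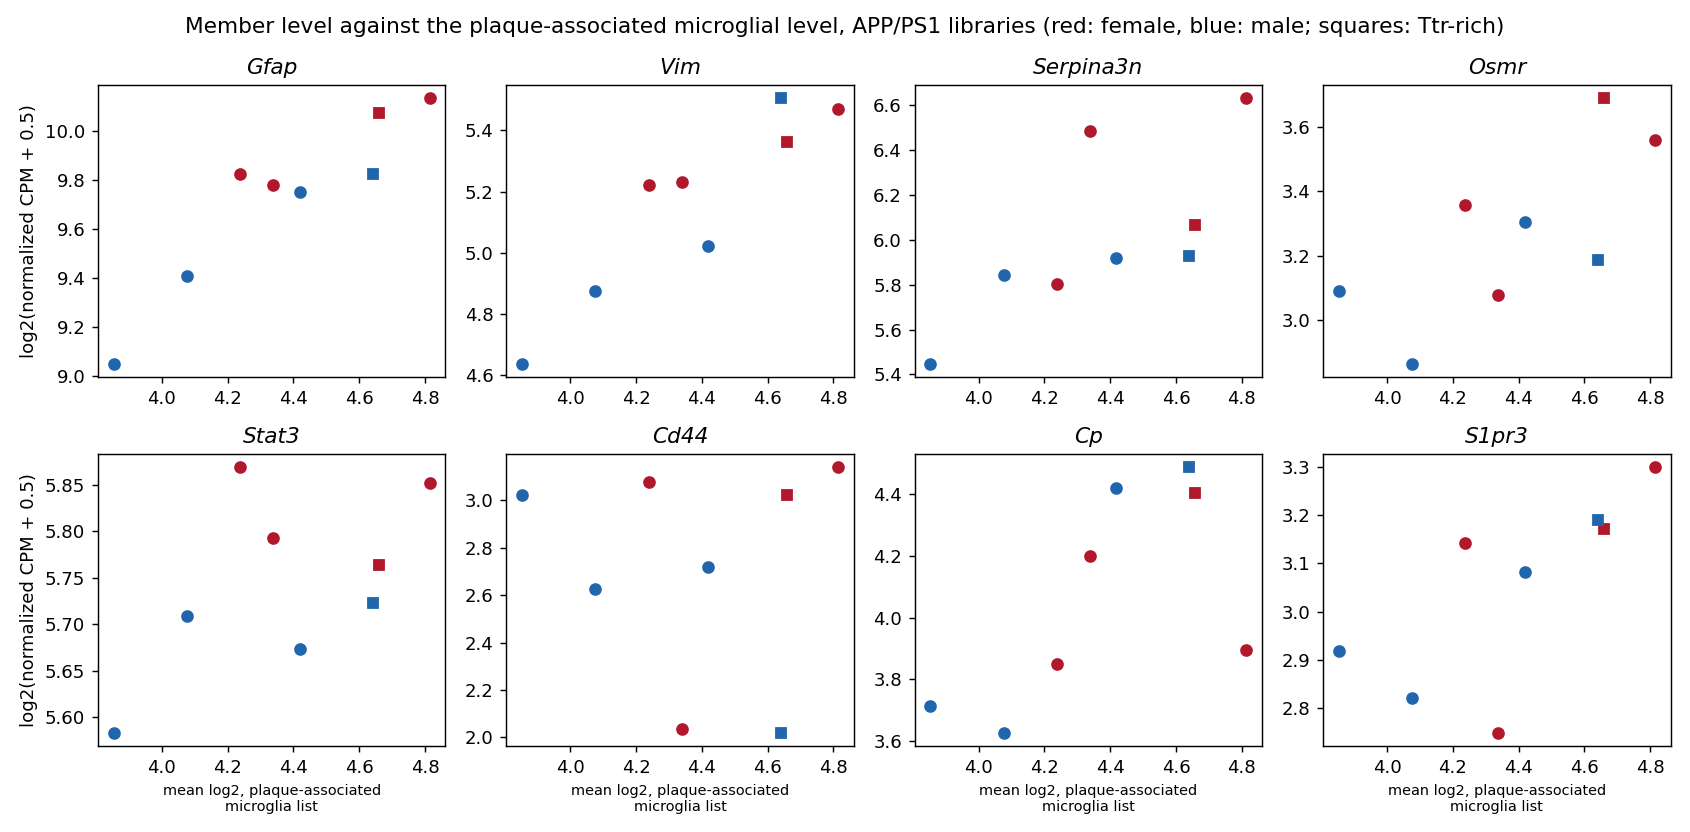
Log2 level of each tested member against the mean log2 level of the plaque-associated microglial genes in the 8 APP/PS1 libraries, females in red and males in blue, Ttr-rich libraries as squares. Gfap (r = 0.928) and Vim (r = 0.918) lie close to a line, and Cd44 (r = -0.0674) does not.

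Other gene lists show where the members stand among astrocyte responses. Of the pan-reactive genes outside the members, 2 of 4 were tested, and Aspg, an asparaginase gene, was called at 1.05 ± 0.16 (SE) on the log2 scale with an adjusted p of 0.00691. Aspg ranged from 2.90 to 7.73 normalized CPM in APP/PS1 and from 1.87 to 3.18 in WT, and its call was lost in 3 of the 17 alternatives that did not leave out single libraries in turn, where the adjusted p of Aspg reached 0.594. Hspb1 was the most abundant of that list at a mean of 6.31.

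Of the genes labelled A1 by earlier work, 5 of 11 tested were called higher in the averaged contrast, beside 1.9 percent of all genes called in either direction. Their median log2 fold change was 0.52, with 8 positive and 3 negative. In females 2 of the 11 were called higher, beside 0.764 percent of all genes, and in males 0, beside 0.171 percent. H2-T23, a class I histocompatibility gene, stood at 0.63 ± 0.10 (SE) with an adjusted p of 0.0119, and that call was lost without WT female 1 (0.163) or APP/PS1 male 2 (0.122). Ggta1, a galactosyltransferase gene, stood at 0.76 ± 0.14 (SE) with an adjusted p of 0.0167. H2-D1, another class I gene, stood at 0.69 ± 0.13 (SE) with an adjusted p of 0.0449, and lost its call without WT female 1 (0.350), WT female 2 (0.194), APP/PS1 male 2 (0.165) or WT male 1 (0.137). Among the 17 alternatives that did not leave out single libraries in turn, the call of H2-T23 was lost in 2 (adjusted p up to 0.150), that of Ggta1 in 4 (0.521) and that of H2-D1 in 6 (0.310). The most abundant of that list was Fkbp5 at 85.3. Of the genes labelled A2, 0 of 6 tested were called by edgeR's quasi-likelihood test, with a median of -0.10 and Ptgs2 the most abundant at 26.3.

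Of 7 genes described in plaque-associated astrocytes, 3 were called higher in the averaged contrast, beside 1.9 percent of all genes called in either direction. Their median log2 fold change was 0.33. In females 2 of the 7 were called higher, beside 0.764 percent of all genes, and in males 0, beside 0.171 percent. C4b, a complement component gene, had a log2 fold change of 1.32 ± 0.17 (SE), an adjusted p of 0.0134, and levels of 46.7 to 111 normalized CPM in APP/PS1 against 23.9 to 36.7 in WT. That call was lost without WT female 1 (0.139), WT female 2 (0.113) or WT male 2 (0.117). Cd9, a tetraspanin gene, stood at 0.51 ± 0.08 (SE) with an adjusted p of 0.0134, lost without WT female 1 (0.264) or APP/PS1 male 2 (0.152). Ctsb, the cathepsin B gene and most abundant of the list at 553, stood at 0.20 ± 0.05 (SE) with an adjusted p of 0.0989. It was not called without APP/PS1 females 1 (0.186) or 3 (0.144), WT females 1 (0.359) or 2 (0.222), APP/PS1 males 1 (0.149) or 2 (0.257), or WT males 1 (0.238) or 2 (0.122). Among the 17 alternatives that did not leave out single libraries in turn, the call of C4b was lost in 5 (adjusted p up to 0.781), that of Cd9 in 7 (1.0) and that of Ctsb in 12 (0.905). Microglia also express C4b, H2-D1, Cd9 and Ctsb, and the part of microglia in these differences was not tested.

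Among the cell types other than astrocytes and microglia that a whole hippocampus could hold, the lists of choroid plexus (11 genes, median log2 fold change -0.06), ependymal (6, -0.30), endothelial (7, -0.00), mural (7, 0.02), meningeal fibroblast (6 tested, -0.10), neuron (7, -0.01) and oligodendrocyte (8, 0.01) had 0 genes called by edgeR's quasi-likelihood test in the averaged contrast. The choroid plexus median was -0.56 in females, with 11 of 11 genes negative, and 0.31 in males, while the ependymal one was -0.02 in females and -0.46 in males, with 6 of 6 negative, and 0 genes of either list were called in either sex. The endothelial median was 0.15 in females, with 6 of 7 positive, and -0.15 in males, with 5 of 7 negative. The meningeal fibroblast median was -0.28 in females, with 6 of 6 negative, and 0.16 in males. In these lists too 0 genes were called in either sex. WT male 2 had the highest summed endothelial level, 243 normalized CPM. Of 6 hippocampal glutamatergic neuron genes 1 was called lower, Spink8, beside 1.9 percent of all genes called in either direction, and the median was -0.08. The adjusted p of Spink8 in edgeR's quasi-likelihood test was 0.0988, just under the threshold of 0.1. The part of these cells in the members' levels was not tested.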

How the data were processed

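The table is as the authors deposited it, raw counts per Ensembl gene, made by trimming reads with Trimmomatic, aligning to GRCm38 with STAR and counting with HTSeq. Versions, annotation release, and the strand and multi-mapping options are not stated. The 12 libraries, with 36714316 to 50643565 total counts each, were grouped by genotype and sex. The members and all gene lists were chosen with earlier results of these data known.

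Genes reaching log2 CPM of 1 in at least 3 libraries were tested (14008). A single model of the 4 groups was fitted in edgeR 4.0.16 (R 4.3.3) with upper-quartile scaling and 2 RUVg factors, whose control genes left out the top 5000 genes of a first-pass test. Contrasts were tested by quasi-likelihood with robust estimation, two-sided, Benjamini-Hochberg adjusted over all genes tested, and called below 0.1. Exact permutation tests and correlations used log2 of normalized CPM plus 0.5, with Pearson correlations counted at an adjusted p below 0.05 (numpy 2.4.6, pandas 2.3.3). Antisense neighbours were read from the GENCODE annotation of the same build, and 55394 of 55573 identifiers matched a symbol.

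Named genes are all 10 members and, of each list of response or partner genes, up to 3 genes called in the averaged contrast in each direction and its most abundant gene. Of the cell type lists, single most abundant genes and Spink8 are named, Spink8 because it was called, a choice made after its value was seen, and antisense neighbours are named beside the members.

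Alternatives were the edgeR likelihood ratio test (estimateGLMRobustDisp), DESeq2 1.42.0, TMM scaling, other filters, other numbers of RUV factors, a choroid plexus score as covariate, a replicate block, each sex alone, and leaving out single libraries or the Ttr-rich ones. Another 4 were added after results were seen, a likelihood ratio test with empirical Bayes robust dispersion and 3 ways of leaving out libraries rich in Lcn2. The study's methods fit either likelihood ratio test.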

Additional observations from a re-analysis of the deposited data

Results flagged for a closer look

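A library was marked here when its gap to the nearest of the other libraries in its group of 4 was large against the group's whole range (Dixon's ratio). Of 63 groups of 4 tested, 8 were marked where 3.15 would be marked by chance, since chance marks about 1 in 20 groups. WT libraries of both sexes formed a single group for this. The groups share libraries and the lists were chosen with earlier results known, so these counts do not test for an excess. The marks of the choroid plexus list fall on the libraries called Ttr-rich, and Ttr is on that list.

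Among the members, Cd44 in APP/PS1 female 4 stood at 3.60 normalized CPM, against 7.62 to 8.31 in the other APP/PS1 females. Lcn2 in the same library stood at 0.557, against 0.228 to 0.266. Lcn2 in APP/PS1 male 1 stood at 4.46, against 0.0452 to 0.178 in the other APP/PS1 males. Lcn2 in WT male 2 stood at 19.3, against 0.158 to 1.91 in the other WT libraries.

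The summed choroid plexus list stood at 5649 normalized CPM in APP/PS1 female 1 (165 to 196 in the other APP/PS1 females). It stood at 10172 in APP/PS1 male 2 (154 to 197 in the other APP/PS1 males) and at 6012 in WT female 2 (136 to 182 in the other WT libraries). The summed ependymal list stood at 69.3 in APP/PS1 male 2, against 21.7 to 28.7 in the other APP/PS1 males. What set these libraries apart was not tested.

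Osmr was marked for a difference between the sexes. Against the WT mean of their own sex, the lowest APP/PS1 female stood at 0.35 on the log2 scale and the APP/PS1 males at -0.50 to -0.06. The male values rest on WT male 2, the highest library of the 12 at 13.4 normalized CPM. Of the 4 APP/PS1 males (6.77 to 9.37) 3 lay above WT male 1 (7.11), and without WT male 2 the Osmr interaction was 0.65 on the log2 scale. The interaction test for Osmr, 1.19 with an adjusted p of 0.995 in edgeR's quasi-likelihood test, did not pass the threshold.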

How the results depend on the processing

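In the contrast averaged over both sexes, Gfap kept its call in all but the following alternatives, single libraries aside. The replicate block, which treats libraries of the same number as pairs, gave 0 called members (Gfap 1.15, adjusted p 0.102), as did leaving out the Ttr-rich libraries with 1 RUV factor. Deviations from the group means correlated at -0.67 to 0.73 between libraries of the same number in different groups. In WT groups of 2 libraries such deviations mirror each other, so these values cannot decide whether the numbers pair animals. In females the likelihood ratio test and DESeq2 each called 3 members, the added likelihood ratio test and the added run without WT male 2 and APP/PS1 male 1 each called 2, and no expression filter, the block and both runs without the Ttr-rich libraries called 0. Of all genes in females, the added likelihood ratio test called 2.06 percent, no expression filter 0.595 percent and the block 0.564 percent. In males the likelihood ratio test, DESeq2 and the added likelihood ratio test each called 1 member, and the likelihood ratio test called 1 interaction and 1 sex difference. Of all genes in males the added likelihood ratio test called 1.01 percent. The cause was not tested, except that fewer animals remained where libraries were left out. Without the Ttr-rich libraries 0 Pearson correlations had an adjusted exact permutation p below 0.05 (2 with all), and r of Cd44 was 0.0829.

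On the log2 scale, the added run without WT male 2 and with no RUV factors changed the sign of the male values of Serpina3n (0.28), Osmr (0.20), Cd44 (0.0259), Cp (0.0389) and S1pr3 (0.0931), so that the male median was 0.15. It also changed the interaction of Vim (-0.0356) and Cp (-0.0396), and Cp averaged (0.0191), in females (-0.000708) and between the sexes (-0.00987). Without WT male 2 and APP/PS1 male 1, Serpina3n (0.25) and Osmr (0.0418) changed sign in males. With the Ttr-rich libraries left out as well, Serpina3n (0.14), Osmr (0.0567) and Cd44 (0.24) did so in males, Cd44 between the sexes (-0.00565) and the Lcn2 permutation difference (0.12). Without the Ttr-rich libraries alone, Vim in males was -0.00786 with no factor and -0.0123 with 1, and Cd44 between the sexes -0.00521 with 1. Cd44 between the sexes was -0.65 when the first-pass test took both genotype effects together. In that run genes that differ by sex could remain among the control genes, so this value is not comparable with the others. Cp in females was -0.0754 with no filter, -0.00083 with no RUV factors and -0.000728 with females alone, and between the sexes -0.0684 with no filter and -0.00987 with no RUV factors. S1pr3 in males was 0.0125 with the block.

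Leaving out each library in turn gave 0 to 1 called members averaged, 0 to 2 in females, 0 to 1 in males, and 0 for the interaction and between the sexes. In the runs without single APP/PS1 libraries, the share of all genes called ran from 1.25 to 2.56 percent averaged. There it ran from 0.457 to 1.11 percent in females and from 0.0571 to 0.307 percent in males. Over all these runs, member medians ran from 0.0810 to 0.28 averaged, 0.24 to 0.44 in females and -0.27 to 0.12 in males. Members not overlapping ran from 1 (fewer is not possible) to 2, and Pearson correlations with an adjusted exact permutation p below 0.05 from 0 to 4. The Gfap permutation difference ran from 1.0 to 1.16. Signs changed within these ranges for r of Cd44 (-0.356 to 0.177), the Cd44 permutation difference (-0.0278 to 0.46) and Serpina3n averaged (-0.00346 to 0.30). In males they did so for Vim (-0.0481 to 0.22), Serpina3n (-0.35 to 0.27), Osmr (-0.76 to 0.15), Cd44 (-0.47 to 0.0178) and S1pr3 (-0.19 to 0.0458). They also did so for Cp in females (-0.15 to 0.0975) and between the sexes for Cp (-0.13 to 0.20) and S1pr3 (-0.00388 to 0.21). Where a group was left with 1 library, that library was taken to vary like the others.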

Other observations

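Beside its Lcn2 and Osmr levels, WT male 2 was the highest library for several genes outside the lists, which were chosen after their values were seen. Vwf, the von Willebrand factor gene of blood vessel cells, stood at 40.5 normalized CPM there and at 9.56 to 17.9 in the other 11 libraries. Cyyr1 stood at 11.3 against 2.62 to 5.26, Tgm2 at 28.0 against 8.84 to 14.4, and Ly6a at 42.2 against 15.2 to 23.1. Socs3, which is on the list of STAT3 inhibitors, stood at 5.87 against 1.14 to 2.69. In WT male 2 there were 4 genes over 2-fold above every other library, and between 0 and 3 in each of the other libraries.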
